A study of Homo sapiens with 8 samples.

Results

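The genes examined were 10 subunits of the core machinery that cuts nascent transcripts and starts their poly(A) tails: CPSF1, CPSF2, CPSF3 and CPSF4 of the cleavage and polyadenylation specificity factor (CPSF), CPSF6, CPSF7 and NUDT21 of cleavage factor I (CFIm), and CSTF1, CSTF2 and CSTF3 of the cleavage stimulation factor (CstF). They were chosen by name, not by their values, although earlier results of these data were known. Transcripts were assigned to them by Ensembl identifier in GENCODE release 44. They are 10 of 16474 genes with at least 1 count, and 37 of their 98 listed transcripts had a count.

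The RNA came from MOLM-13, an established human acute myeloid leukemia cell line, and was read as cDNA in long reads on a nanopore instrument. Whether the reads spanned whole transcripts was not tested. Cells carrying a shRNA against PTBP1 (shPTBP1) were compared with cells carrying a scrambled shRNA (shControl), in 4 biological replicates each. In both groups the shRNA was expressed from a lentiviral construct under a doxycycline-inducible promoter together with ΔLNGFR, a truncated surface receptor, the construct also expressed mCherry constitutively, and the cells had received doxycycline for 9 days. As each group had 1 shRNA, whatever else differs between the cells cannot be told apart from the knockdown, and the tests weigh differences against the spread of the 4 libraries.

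Cleavage and polyadenylation is how nearly every human mRNA obtains its 3′ end. CPSF recognizes the hexamer AATAAA (with U for T in the RNA) a short distance upstream of the cut and carries the endonuclease that makes it, CstF binds U-rich and GU-rich RNA downstream of the cut, and CFIm binds UGUA elements upstream of the cut and influences which of several possible ends is used. PTBP1, a splicing regulator that binds pyrimidine-rich RNA, has also been linked to the choice of polyadenylation sites, so the machinery was examined at 3 levels: the abundance of each gene, the choice among its isoforms, and the ends of its own transcripts.

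The coding segments that differ between the 2 common isoforms of CPSF4, CPSF7 and CPSF6 are shown first, because the isoform results rest on counts of transcripts with and without them (hg38, read along the transcript). The CPSF4 segment lengthens an exon of CPSF4-201 at its upstream side by 75 bases (chr7:99453966-99454040, plus strand), the CPSF7 segment lengthens an exon of CPSF7-202 at its downstream side by 27 bases (chr11:61419922-61419948, minus strand), and the CPSF6 segment is the whole exon 6 of the 11 exons of CPSF6-201, with 111 bases (chr12:69258035-69258145, plus strand). Each lies inside the coding sequence and has a length that is a multiple of 3.
CPSF4-201 segment: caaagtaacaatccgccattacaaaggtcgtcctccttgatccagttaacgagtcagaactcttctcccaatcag
CPSF7-202 segment: gtgagtgtgtccgagtcccaagagggg
CPSF6-201 exon 6: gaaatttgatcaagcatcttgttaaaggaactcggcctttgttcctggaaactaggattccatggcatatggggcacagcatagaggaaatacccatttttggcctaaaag

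The last 30 bases of 6 annotated transcripts are shown because these genes use more than 1 annotated end (CPSF6, CSTF3) or carry the abundant single end of CFIm (NUDT21), with the hexamer in capitals where it occurs. CPSF6-202 ends at chr12:69274329-69274358 (plus strand) and CPSF6-201 at chr12:69269910-69269939, which is 4419 bases earlier. CSTF3-201 ends at chr11:33084584-33084613 (minus strand), while CSTF3-202 (chr11:33141465-33141494) and CSTF3-203 (chr11:33140966-33140995) end 56881 and 56382 bases earlier, after exon 3 of the 21 exons of CSTF3-201. NUDT21-201 ends at chr16:56429133-56429162 (minus strand).
CPSF6-202 end: tattgaaAATAAAacaaacttttgataaga
CPSF6-201 end: tgtagtgttgtAATAAActgtttaatgggg
CSTF3-201 end: tcctttaaaaAATAAAaggattcagaaaca
CSTF3-202 end: cttttacaagctgatgattgttgcattttg
CSTF3-203 end: ttcatgattatggttaggaggaaaatgtta
NUDT21-201 end: tcatttcAATAAAaaatatttgaaagagaa

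AATAAA was in the last 30 bases of the most used transcript of 8 of the 10 genes (not of CPSF1-212 or CPSF4-204), and of 39% of the 55934 distinct ends of protein-coding transcripts in the annotation. ATTAAA, the commonest variant, was there without AATAAA in 9.81% of those ends and in 0 of the most used transcripts of the 10 genes. For CPSF4 this depends on the transcript taken. CPSF4-201, which ends slightly later than CPSF4-204 (chr7:99457373 against 99457342), has ATTAAA in its last 30 bases. TGTA, the DNA spelling of the CFIm element, was in the last 100 bases of 6 of the 10 and of 47.1% of all such ends. Only the transcript strand was searched, a window with both hexamers was counted under AATAAA, and a match describes the letters of the annotated window. The sets are unlike: the members give the most used transcript of each gene, the annotation every distinct end, whether or not it had counts. The percentages are therefore no measure of enrichment in the members.

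Before the members, the libraries were checked. Each held between 1528449 and 1613342 counts, with 12322 to 12589 genes detected, and squared differences between replicates were 2.03 to 3.73 times those of counting error. PTBP1 (chr19:797075-812327), the targeted gene, had 10, 15, 13 and 23 counts with shPTBP1 and 65, 90, 64 and 78 with shControl. The groups did not overlap, and edgeR gave a log2 fold change of -2.26 (SE 0.22) with an adjusted p of 7.18e-05. Each of 12 myeloid leukemia markers had a count, although SPI1 and CD14 had 1 count each in all libraries together. The summed level of the 12 was 681 to 788 normalized CPM (counts per 1000000, scaled by TMM) with shPTBP1 and 621 to 669.9 with shControl, without overlap. Most of these counts came from LYZ and CEBPA, so the sum does not describe each marker. Of all single genes tested, 12.7% did not overlap between the groups. The T cell markers CD3E, CD3D and CD2 were at 0, as were MS4A1, HBB and CDH5, whereas the endothelial list reached 32.0 to 37.7 and 30.6 to 37.5 normalized CPM, nearly all from PECAM1. The epithelial list was at 1.26 to 3.84 and 3.82 to 7.99 normalized CPM in shPTBP1 and shControl, the fibroblast list at 10.1 to 14.5 and 8.98 to 11.1, and the B cell list at 1.33 or below. What part these levels had in the results was not tested. Across all 7597 genes tested the median log2 fold change was -0.0001.

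At the gene level, none of the 10 factors passed the test in either direction: 0 were lower and 0 higher by edgeR at an adjusted p under 0.05, where 3.19% of all genes tested were called lower and 2.36% higher. DESeq2 and limma-voom also called 0, and in each of the 3 tools 1 member, CPSF4, had an unadjusted p under 0.05, as did 19.2% of all genes tested by edgeR. The groups did not overlap for 0 of the 10, against 12.7% of all genes tested. The log2 fold changes ran from -0.59 to 0.18 with a median of -0.05, 6 were below 0, and 8 of 10 lay within 0.25 of 0, as did 65.6% of all genes. In bulk RNA, fewer cells with a transcript and less transcript per cell cannot be told apart.

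**Figure D1:**
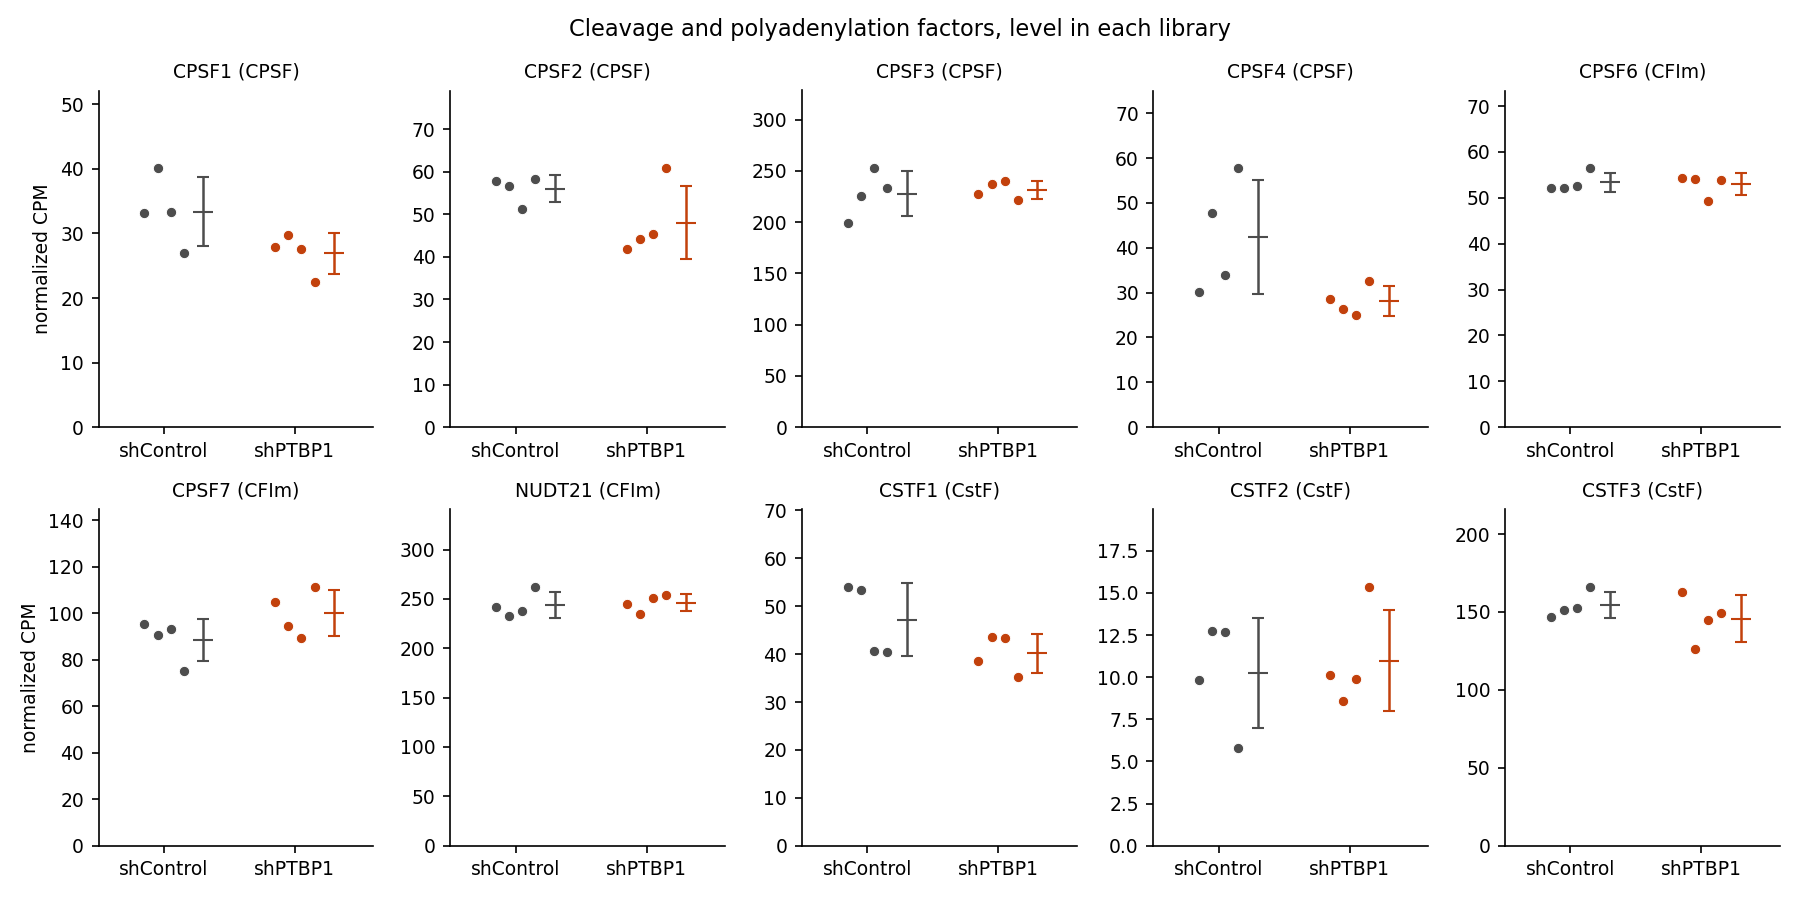
Level of each of the 10 genes in normalized CPM (y axis, linear, from 0, scale differing between panels) in the 4 shControl and 4 shPTBP1 libraries (points), with the mean and SD beside them. The groups overlap in every panel, also for CPSF4, with 25.02 to 32.7 in shPTBP1 against 30.1 to 57.7 in shControl.

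Per kilobase of annotated transcript, weighted by counts, the factors differed widely in level in shControl cells. CPSF3 was highest at 101 ± 9.70 CPM per kb (SD, n = 4), and CSTF2 lowest at 4.19 ± 1.34. NUDT21 (56.1 ± 2.97) and CSTF3 (55.8 ± 3.00) followed CPSF3 and did not differ beyond the spread of the libraries. CPSF7 (25.2 ± 2.61) and CPSF4 (24.0 ± 7.19) overlapped next, then CSTF1 (11.8 ± 1.91) with CPSF6 (10.02 ± 0.39), and CPSF6 with CPSF1 (8.38 ± 1.35). CPSF2 (4.33 ± 0.25) and CSTF2 also overlapped. The steps from CPSF3 to NUDT21, from CSTF3 to CPSF7, from CPSF4 to CSTF1 and from CPSF1 to CPSF2 were without overlap. On this scale the endonuclease subunit of CPSF and its partner CPSF2 stood near opposite ends of the order. These levels depend on the annotated lengths, which ran from 1.77 kb for CPSF4 to 12.9 kb for CPSF2. Counts of long cDNA reads need not grow with transcript length, so the division can itself set the order. Undivided, the shControl means were 244 normalized CPM for NUDT21, 228 for CPSF3 and 10.3 for CSTF2, again the lowest. CPSF2, at 56.0, was then above CPSF6 (53.4), CSTF1 (47.2), CPSF4 (42.4) and CPSF1 (33.4).

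The 4 CPSF genes among the members summed to 335 ± 6.31 normalized CPM with shPTBP1 and 359.5 ± 26.0 with shControl (SD, n = 4). WDR33 and FIP1L1, also of CPSF, were not in this sum. CPSF3 alone had means of 232 and 228, so the sum mostly reflects that gene. Between the summed means the ratio was 0.931, and these 4 members had a median log2 fold change of -0.27. The sums overlapped, because shControl replicate 1, at 321, lay below all 4 shPTBP1 libraries.

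CPSF4, a zinc finger subunit that contacts the AATAAA hexamer (chr7:99438922-99457373), had the largest change of the 10. Its level was 28.5, 26.4, 25.02 and 32.7 normalized CPM in shPTBP1 replicates 1 to 4 and 30.1, 47.8, 34.0 and 57.7 in shControl. The shPTBP1 libraries were close together and the shControl libraries spread, and shPTBP1 replicate 4 lay above shControl replicate 1. The means were 28.1 ± 3.33 and 42.4 ± 12.7, a log2 fold change of -0.59 (SE 0.20, 95% interval -1.02 to -0.16, adjusted p = 0.111). The interval, which is not adjusted for the number of genes, left out 0, whereas the adjusted p missed the threshold. Over the alternatives its adjusted p ranged from 0.0476 to 0.293, and it passed without shControl replicate 1 (0.0476). Leaving out shControl replicate 4, the highest library, moved the log2 fold change to -0.40.

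CPSF1, the large scaffold subunit (chr8:144393229-144409335), was the next lowest. It had 27.8, 29.7, 27.7 and 22.4 normalized CPM with shPTBP1 and 33.2, 40.1, 33.3 and 26.9 with shControl. A single shControl library, replicate 4, fell within the shPTBP1 range. On 375 counts in the 8 libraries together, its log2 fold change was -0.31 (SE 0.16, 95% interval -0.66 to 0.03, adjusted p = 0.310).

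CPSF2, the inactive homolog of the endonuclease and its partner (chr14:92121969-92172145), had 41.8, 44.3, 45.4 and 60.8 normalized CPM with shPTBP1 and 57.8, 56.7, 51.4 and 58.4 with shControl. In 3 shPTBP1 libraries it was below every shControl library, and in replicate 4 above them all. Its log2 fold change was -0.22 (SE 0.13, 95% interval -0.50 to 0.06, adjusted p = 0.381) and was -0.36 to -0.16 when 1 library was left out.

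CPSF3, the endonuclease that cuts the transcript (chr2:9423651-9473101), was by contrast at nearly the same mean level in both groups. It was measured from 2850 counts, with 227, 237, 240.3 and 221.5 normalized CPM under shPTBP1 and 199.7, 225, 253 and 233 under shControl. All 4 shPTBP1 libraries lay inside the shControl range. The means were 232 ± 8.72 and 228 ± 21.9, a log2 fold change of 0.02 (SE 0.08, 95% interval -0.14 to 0.19, adjusted p = 0.908). Its sign turned in limma-trend and without shControl replicate 1.

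The 3 CFIm genes together were at 399 ± 16.1 normalized CPM with shPTBP1 and 386 ± 7.88 with shControl, a ratio of 1.03, with overlapping sums. NUDT21, the subunit that binds UGUA and whose loss is known to shift many mRNAs to nearer ends (chr16:56429133-56452199), was the most deeply counted member, with 3046 counts. It had 245, 235, 251 and 254 normalized CPM with shPTBP1 and 242, 233, 238 and 262 with shControl. All 4 shPTBP1 values lay inside the shControl range. With a log2 fold change of 0.01 (SE 0.07, adjusted p = 0.945), it had the narrowest 95% interval of the 10, -0.13 to 0.15.

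CPSF6, a larger CFIm subunit with a domain rich in arginine and serine (chr12:69239569-69274358), was at similar means in both groups. It had 54.4, 54.2, 49.4 and 53.8 normalized CPM with shPTBP1 and 52.2, 52.2, 52.7 and 56.5 with shControl. In each group 3 libraries lay close together and 1 stood off, low in shPTBP1 and high in shControl. Between the groups the log2 fold change was -0.01 (SE 0.10, 95% interval -0.22 to 0.20, adjusted p = 0.972).

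CPSF7, which can take the place of CPSF6 in CFIm (chr11:61402641-61430031), had the highest log2 fold change of the 10. It had 105, 94.5, 89.5 and 111 normalized CPM with shPTBP1 and 95.2, 90.4, 93.4 and 75.1 with shControl. Replicates 1 and 4 of shPTBP1 exceeded every shControl value, and shControl replicate 4 was below all others. This gave a log2 fold change of 0.18 (SE 0.10, 95% interval -0.04 to 0.40, adjusted p = 0.377).

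The 3 CstF genes summed to 197 ± 13.7 normalized CPM with shPTBP1 and 212 ± 4.83 with shControl, a ratio of 0.930. The sums overlapped, since shPTBP1 replicate 1, at 211, lay among the shControl libraries. CSTF3, the subunit that holds the other two together (chr11:33077188-33162371), had 163, 126, 145 and 149 normalized CPM with shPTBP1 and 147, 152, 153 and 166 with shControl. The lowest and the second highest library were both shPTBP1. Its log2 fold change was -0.08 (SE 0.09, 95% interval -0.27 to 0.10, adjusted p = 0.666).

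CSTF1, a WD-repeat subunit (chr20:56392371-56406362), had 38.6, 43.6, 43.4 and 35.2 normalized CPM with shPTBP1 and 54.1, 53.5, 40.7 and 40.4 with shControl. Replicates 1 and 2 of shControl were above all shPTBP1 libraries and the other two among them. The change was -0.23 on the log2 scale (SE 0.14, 95% interval -0.53 to 0.06, adjusted p = 0.393). CSTF2, the RNA-binding subunit (chrX:100820391-100841520), was counted 132 times in all, between 9 and 24 times per library, with 11.0 ± 3.00 and 10.3 ± 3.28 normalized CPM. At this depth its log2 fold change of 0.10 had a 95% interval of -0.53 to 0.74, and its sign turned without shPTBP1 replicate 4 or shControl replicate 4, so neither a rise nor a fall was detectable.

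**Figure D2:**
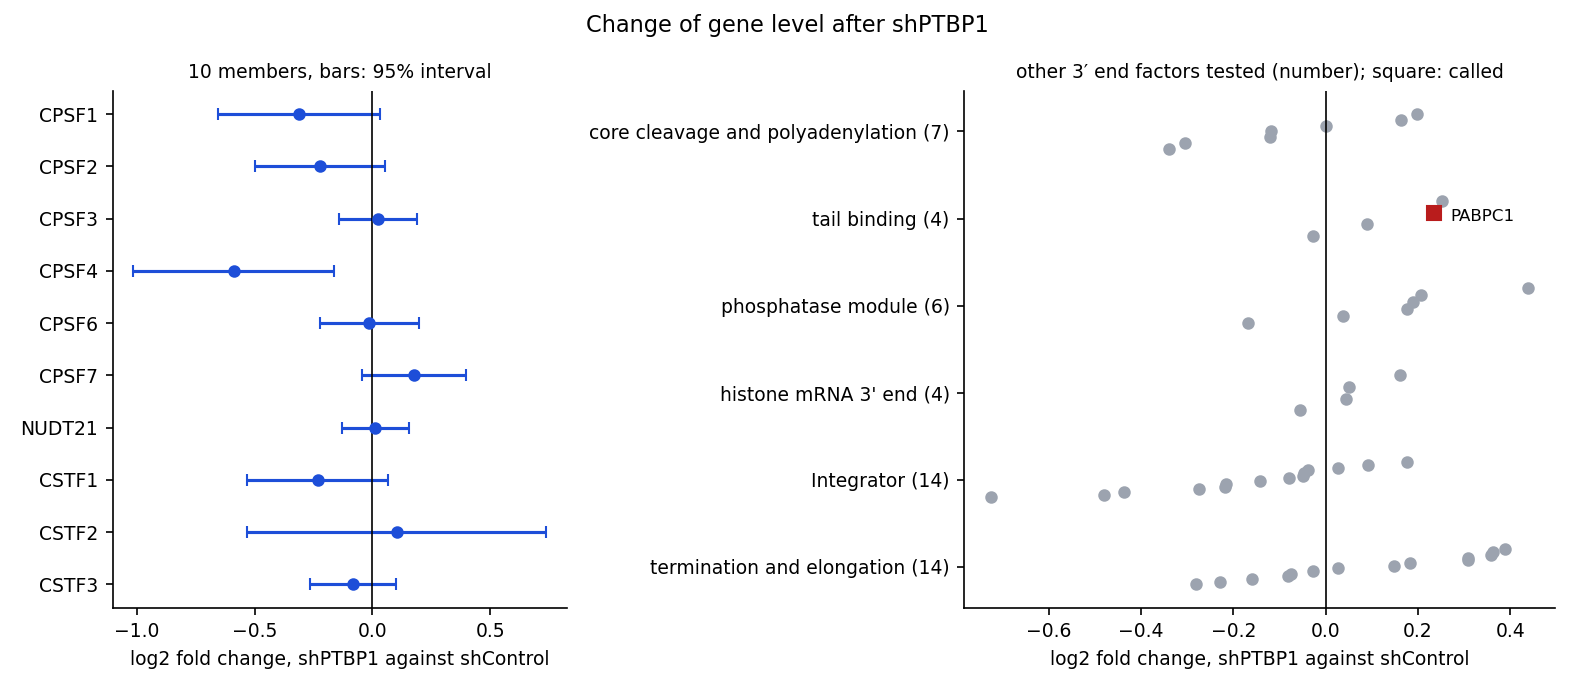
Log2 fold change of shPTBP1 against shControl (x axes, edgeR). Left, the 10 members with 95% intervals, from CPSF4 at -0.59 to CPSF7 at 0.18; right, the other 3′ end factors tested, grouped by role with their number in parentheses, where the square marks PABPC1 at 0.23, called by edgeR but not by limma-trend.

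The other factors of 3′ end formation gave the setting for these values. Of 55 listed genes 49 were tested, 0 were lower and 1 was higher by edgeR (PABPC1), against the 3.19% and 2.36% of all genes, 8 had an unadjusted p under 0.05 (19.2% of all genes did), and the median log2 fold change was -0.0002. DESeq2 and limma-voom gave the same 0 and 1. The groups did not overlap for 7 of the 49, which is to be read beside the 12.7% of all genes. Of the core factors outside the 10 members, SYMPK, the symplekin scaffold, had at most 2 counts in a library and was not tested. WDR33 and FIP1L1, which complete the part of CPSF that finds the hexamer, had means of 19.5 and 27.0 normalized CPM with shPTBP1 and 19.4 and 33.5 with shControl. The 95% interval of the log2 fold change was -0.48 to 0.48 for WDR33 and -0.74 to 0.13 for FIP1L1.

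PCF11, of the second cleavage factor, was at 14.9 ± 2.33 and 18.9 ± 2.27 normalized CPM in shPTBP1 and shControl (log2 fold change -0.34, adjusted p = 0.357). CSTF2T, a copy of CSTF2 elsewhere in the genome with which it could share reads, had a log2 fold change of 0.16 (95% interval -0.71 to 1.04). PAPOLA, the main nuclear poly(A) polymerase, was at 451 ± 26.8 and 393 ± 6.29, with groups that did not overlap, a log2 fold change of 0.20 (SE 0.06) and an adjusted p of 0.0821 that missed the threshold. PABPN1, which coats the growing tail in the nucleus, was at 13.3 ± 2.22 and 12.5 ± 3.17 (adjusted p = 0.893). PABPC1, the cytoplasmic tail-binding protein, rose by 0.23 on the log2 scale (SE 0.06, adjusted p = 0.0475), from 1509 ± 116 with shControl to 1776 ± 85.4 with shPTBP1. That call was lost with a mean of at least 50 counts (0.0517), in both limma-trend fits (0.103 and 0.104) and without each library in turn except shControl replicate 1 (0.0680 to 0.133), and PABPC1 has close copies among which reads can be divided.

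By role, the 7 tested core factors had a median log2 fold change of -0.12, the 4 tail-binding genes 0.16, the 6 of the phosphatase module 0.18, the 4 for histone mRNA ends 0.05, and the 14 for termination and elongation 0.09, with PABPC1 the 1 call among them. Of the 14 Integrator genes, whose complex cuts small nuclear RNAs and holds relatives of CPSF2 and CPSF3, 11 were below 0 (3802 of all 7597 genes were), 0 passed the test, and the median was -0.11. The groups did not overlap for 4 of the 14, where 12.7% of all genes tested did not overlap. These 4 are named here, chosen after their values were seen: INTS8 (log2 fold change -0.73, adjusted p = 0.103), INTS1 (-0.48, adjusted p = 0.171), INTS9, the relative of CPSF2, and INTS11, the relative of CPSF3. INTS9 was at 37.9 ± 1.04 and 51.4 ± 8.50 normalized CPM with shPTBP1 and shControl (log2 fold change -0.44, adjusted p = 0.0726), and INTS11 at 63.5 ± 2.35 and 76.8 ± 5.49 (-0.28, adjusted p = 0.111).

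Isoform choice within the members was then compared, each annotated transcript taken as a percentage of its gene. Of their 37 transcripts with a count, 6 in 3 genes (CPSF4, CPSF6 and CPSF7) were deep enough for the test, 0 were called by diffSpliceDGE (adjusted p under 0.05, share changed by at least 0.1), and 0 had an unadjusted p under 0.05. Across all genes 61 of 5464 isoforms, 1.12%, were called. In 5 of the 10 genes (CPSF2, CPSF3, NUDT21, CSTF1 and CSTF3) a single isoform held over 90% of counts in both groups.

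CPSF4-201, with the longer exon shown above, held 31.1, 35.0, 36.8 and 35.3% of CPSF4 counts with shPTBP1 and 42.9, 33.3, 25.5 and 42.2% with shControl. The shPTBP1 shares all lay inside the shControl range. The means were 34.6 ± 2.44% and 36.0 ± 8.23%, and CPSF4-204 held nearly all the rest, 64.8 ± 2.87% and 63.8 ± 8.53% (adjusted p = 0.9999 for both). The lower count of CPSF4 under shPTBP1 was thus divided between the 2 isoforms in similar proportions, 60 and 113 counts against 97 and 167.

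CPSF7-202, with 27 further coding bases, held 23.6 ± 1.65% with shPTBP1 and 23.9 ± 2.74% with shControl, and CPSF7-205 held 76.1 ± 1.37% and 75.7 ± 2.34%. These were the most evenly measured of the paired isoforms, on 146 and 133 counts for CPSF7-202. The shares overlapped and differed by 0.32 percentage points.

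CPSF6-201, which has the extra exon 6 and the earlier end, held 27.9, 26.8, 25.3 and 7.14% of CPSF6 counts with shPTBP1 and 24.7, 26.8, 31.7 and 27.3% with shControl. Replicate 4 of shPTBP1, with 6 counts of 84, stood apart from the other 7 libraries, whose shares ran from 24.7 to 31.7%. The difference of the means, -5.81 percentage points (21.8 ± 9.83% against 27.6 ± 2.91%), shrank to -0.92 without that library, and the adjusted p was 0.9999. CPSF6-202, the longer form, held 77.6 ± 10.3% and 71.2 ± 3.41%.

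**Figure D3:**
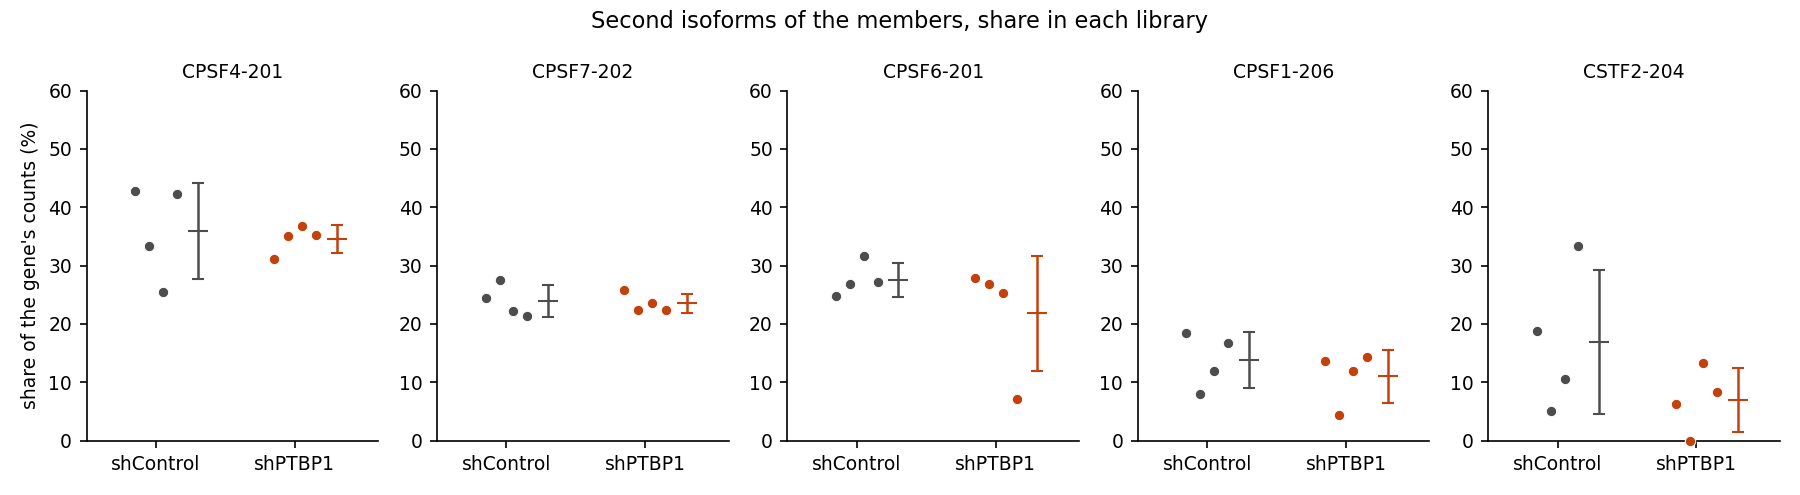
Share of the gene's counts (y axis, percent, from 0) on the less used of the named isoforms of 5 genes in 4 shControl and 4 shPTBP1 libraries (points), with mean and SD. The groups overlap in each panel, and in CPSF6-201 a single shPTBP1 library lies at 7.14% while the other 7 lie at 24.7% or above.

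The remaining named isoforms were not tested, since in each of these genes at most 1 isoform passed the filter on low counts. CPSF1-206, an annotated retained-intron transcript at the end of CPSF1, held 11.1 ± 4.53% and 13.8 ± 4.76% in shPTBP1 and shControl, beside CPSF1-212 with 88.9 ± 4.53% and 85.8 ± 5.42%. CSTF2-204, annotated as a substrate of nonsense-mediated decay, had 5 counts in shPTBP1 and 9 in shControl, or 6.98 ± 5.52% and 16.9 ± 12.3%. The difference of -9.92 percentage points was -4.45 without shControl replicate 4, which had 3 of those 9 counts. CSTF2-201 held the rest, 93.0 ± 5.52% and 83.1 ± 12.3%. Among all 37 transcripts the shares did not overlap for 1, CPSF3-202, at 0.70 ± 0.15% and 0.35 ± 0.13%, on 10 and 5 counts in all. Of all 37995 isoforms with a count in the genes tested, 3.36% did not overlap.

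The single dominant isoforms varied little. CPSF2-201 held 99.4 ± 0.74% and 99.4 ± 0.70% of counts in shPTBP1 and shControl, CPSF3-201 99.2 ± 0.25% and 99.6 ± 0.18%, and NUDT21-201 99.0 ± 0.48% and 98.8 ± 0.24%. CSTF1-201 held 96.9 ± 2.24% and 98.5 ± 2.26%. CSTF3-201 held 94.0 ± 1.25% and 96.0 ± 1.77%, with overlap between the groups.

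The members were finally examined for their own 3′ ends, joining annotated ends of a gene that lie within 50 bases. Across all genes 2910 ends of 1313 genes were tested and 13, 0.447%, were called, in 12 genes, of which 8 shifted to a nearer and 4 to a farther end. The direction compares the most changed called end with the tested end that changed most the other way. Ends too thinly counted for the test had no part in it. Of the members, 4 ends of CPSF6 and CPSF7 could be tested, 0 were called and 0 had an unadjusted p under 0.05 (smallest adjusted p = 0.9999). The nearer end of CPSF6 held 22.1 ± 10.1% of counts with shPTBP1 and 28.8 ± 3.41% with shControl, again with replicate 4 of shPTBP1 at 7.14%. The 2 ends of CPSF7, 80 bases apart, held 23.6 and 76.1% with shPTBP1 and 23.9 and 75.7% with shControl. These are the shares of CPSF7-202 and CPSF7-205, and the farther end of CPSF6 has the share of CPSF6-202. For the members the test on ends thus largely repeats the isoform test on the same counts and is no separate result. All ends here are those of annotated transcripts to which reads were assigned, not measured read ends.

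A count of all ends over 200 bases upstream of the most used end was added after the values were seen, and so has no test. It gave 10 or more such counts for 5 members (CPSF6, NUDT21, CSTF1, CSTF2 and CSTF3), and the shares did not overlap for 1 of them, CSTF3, where 5.5% of the 2493 genes with as many counts did not overlap. The short transcripts of CSTF3, which end in the intron after exon 3, are a known product of this gene, described as a form of negative feedback on CstF. Upstream ends of CSTF3, nearly all of them these short transcripts, took 12, 7, 11 and 14 counts with shPTBP1 and 6, 7, 6 and 5 with shControl. As shares of CSTF3 counts these were 4.67, 3.67, 5.0 and 6.01% against 2.51, 2.94, 2.62 and 1.93%, and every shPTBP1 share was above every shControl share, although replicate 2 had 7 counts in both groups.

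The mean share was 4.84 ± 0.97% with shPTBP1 and 2.50 ± 0.42% with shControl, a difference of 2.33 percentage points on 44 and 24 counts, which was 1.94 to 2.73 when 1 library was left out. CSTF3-203 contributed 24 and 13 of the counts, CSTF3-202 contributed 19 and 11, and CSTF3-207, which ends elsewhere, contributed 1 and 0. The windows of the ends of CSTF3-202 and CSTF3-203, printed above, held neither AATAAA nor ATTAAA in their last 30 or 50 bases. Among the other members, upstream ends had 72 counts with shPTBP1 against 96 with shControl in CPSF6, 16 against 19 in NUDT21, 5 against 9 in CSTF2 and 8 against 5 in CSTF1. CPSF2, CPSF3 and CPSF7 had 1 or 2 in each group, and CPSF1 and CPSF4 had 0.

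Some of the members share bases with neighbors. The exons of CSTF3-201 overlap TCP11L1 on the opposite strand by 392 bases, those of CPSF7-205 overlap ENSG00000256591 by 71 and those of CPSF1-212 overlap ADCK5 by 12, also on the opposite strand, and whether the counting used strand is not given in the sources used here. Exons of an unnamed gene on the same strand, with 0 counts, overlap NUDT21-201 by 2724 bases, so that reads of NUDT21 were not divided with it.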

How the data were processed

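Total RNA of 8 MOLM-13 cultures was read as nanopore cDNA. The authors aligned reads to hg38 with minimap2, kept those with a mapping quality over 50, and counted annotated transcripts with StringTie (tools also named in the submitters' processing notes). Versions, the annotation release and the use of strand are not given in the sources used here. The deposited counts are whole numbers per transcript, not normalized. The second deposited table, named TPM, holds CPM: the authors' count divided by the library total, per 1000000 (largest difference from the counts 4.998e-07, tolerance 1e-06).

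Transcripts were joined by Ensembl identifier without version to GENCODE 44, which held 252562 of the 254070 listed; the other 1508 carried 0.0876 to 0.115% of counts and were left out. Groups and replicate numbers came from the sample labels. Gene sums were normalized by TMM and tested with edgeR 4.0.16 (quasi-likelihood, filterByExpr with minimum count 10, Benjamini-Hochberg over 7597 genes, called under 0.05). Isoforms and annotated 3′ ends joined within 50 bases were tested with diffSpliceDGE, called where the adjusted p was under 0.05 and the share changed by at least 0.1. DESeq2 1.42.0 and limma 3.58.1 (voom, trend on log2 of CPM plus 1 or 0.5, diffSplice), other filters, DESeq2's size factors, the replicate number as a block and leaving out each library were the alternatives. The scripts were tested on simulated data in R 4.3.3, and tables and figures were made with Python 3.11.15. Intervals are 95% and the limit for a count of 0 is 3 counts, which covers counting error only, since amplified cDNA molecules are not independent.

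The members, the 55 other factors and the markers were chosen with earlier results of these data known. The text names the 10 members, their isoforms with a mean share of at least 10% in either group or called, called genes among the other factors with SYMPK, WDR33, FIP1L1, CSTF2T, PCF11, PAPOLA and PABPN1, and PTBP1; dominant isoforms of the same genes and any others are named for a count or as chosen later. The other assays of the study were not analysed here.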

Additional observations from a re-analysis of the deposited data

Results flagged for a closer look

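Among 54 groups of 4 libraries checked, 3 held 1 library whose gap to the nearest of the others was more than 0.829 of the range of the group. Chance gives about 1 such group in 20. For the CPSF6 level the gap was 0.875 of the range in shPTBP1, where replicate 3 was low at 49.4 normalized CPM beside 53.8 to 54.4, and 0.889 in shControl, where replicate 4 was high at 56.5 beside 52.2 to 52.7. For the share of CPSF6-201 the gap was 0.876 in shPTBP1, where replicate 4 had 6 counts and 7.14% beside 25.3 to 27.9%. The other CPSF6 isoform, CPSF6-202, had 78 counts in that library, and the summed level of CPSF6 there, 53.8 normalized CPM, was within the range of the shControl libraries. The part of this library in the CPSF6 isoform difference is given by the value without it, -0.92 percentage points in place of -5.81.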

How the results depend on the processing

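The count of 0 called members, lower or higher, was the same with each alternative tool, filter and scaling, and 1 was lower (CPSF4) when shControl replicate 1 was left out, a range of 0 to 1. Members' log2 fold changes kept direction and call in 72 of 77 results with all libraries and in 72 of 80 with 1 library left out. Signs turned for values near 0: CPSF3 was -0.0097 in both limma-trend fits and -0.0331 to 0.0780 with 1 library left out. NUDT21 was -0.0051 with a mean of at least 50 counts, -0.0244 in both limma-trend fits, and -0.0077 to 0.0508 with 1 library left out. CPSF6 was -0.0239 to 0.0226 and CSTF2 -0.10 to 0.23 with 1 library left out. WDR33 was 0.0102 with DESeq2, 0.0029 with its size factors and 0.0072 with no filter, and with 1 library left out WDR33 was -0.180 to 0.149, CSTF2T -0.0858 to 0.520 and PABPN1 -0.0787 to 0.181. CPSF1 and CSTF2 were not in the fit with a mean of at least 50 counts, and DESeq2 gave no adjusted p for CSTF2.

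Of the other factors 1 was lower (INTS9) and 0 higher with a mean of at least 50 counts, and 0 were higher in both limma-trend fits; leaving out 1 library gave 0 to 1 lower and 0 to 1 higher. Over all genes DESeq2 called 157 lower, and leaving out 1 library gave 107 to 190 lower and 77 to 168 higher. Called isoforms numbered 155 with limma's diffSplice, 28 at a minimum change of 0.2 and 42 to 54 with 1 library left out, called ends 53 with diffSplice and 3 to 9 with 1 library left out, and members 0 in each. PTBP1 stayed between -2.51 and -2.09. Shares of named isoforms moved by less than 1 SD in all 120 results with 1 library left out. This could not be otherwise, since leaving out 1 of 4 values cannot move a mean by 1 SD of its group. In percentage points, CPSF6-201 went from -5.81 to -0.92 without shPTBP1 replicate 4. CPSF4-201 went from -1.41 to 0.88 without shControl replicate 1, a change of sign.

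Replicate numbers were not treated as pairing: libraries of the same number did not deviate together (correlations -0.0328 to 0.00889). With the number as a block, 186 genes were lower, 137 higher, 52 isoforms and 7 ends called and 0 members at each level, the CPSF4 adjusted p was 0.0892, and PTBP1 was -2.27. Depth limited the level of CSTF2 (132 counts), its isoforms and the CSTF3 upstream ends (44 and 24 counts).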

Other observations

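One further transcript was named after its values were seen. ZC3H14 encodes a zinc finger protein that binds poly(A) tails, and ZC3H14-221 is annotated as a retained-intron transcript (chr14:88608422-88612979). It had 16, 15, 16 and 12 counts in the shPTBP1 libraries and 0 in each of the 4 shControl libraries. All 4 shPTBP1 libraries were thus alike and apart from the control. It held 27.1 ± 1.16% of ZC3H14 counts with shPTBP1 (SD, n = 4), and 0 of 185 counts with shControl, which allows a share of up to 1.62%. The isoform passed the filter on low counts only through the shPTBP1 libraries and was picked for these values. Its call by diffSpliceDGE (adjusted p = 1.80e-06) is therefore no separate support. ZC3H14-219, the most used form and protein-coding, held 43.7 ± 7.31% and 53.2 ± 8.33% with shPTBP1 and shControl, with overlap (diffSpliceDGE adjusted p = 0.221). ZC3H14-201, also protein-coding, held 10.2 ± 2.19% and 23.3 ± 0.38%, without overlap and too thinly counted for the test. Of all isoforms with a count in the genes tested, 3.36% did not overlap. The gene as a whole was at 35.2 ± 4.00 and 29.5 ± 5.20 normalized CPM (log2 fold change 0.25, adjusted p = 0.424). ZC3H14 was also 1 of the 12 genes with a called end, whose gain of 27.1 percentage points equals the share of ZC3H14-221. It was counted as a shift to a farther end, although ZC3H14-201, which ends farther still (chr14:88627596), held a lower share with shPTBP1.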
